A study of Mus musculus with 16 samples.

Results

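H19, Igf2, Meg3, Rian, Dlk1, Cdkn1c, Peg3, Grb10 and Plagl1 are imprinted genes with known roles in fetal growth, and this account follows their RNA through a mouse study of pressure overload and proline dehydrogenase. They were chosen by gene symbol, 9 genes among the 57010 gene models of the deposited count table, and 8 of the 9 had enough counts to be tested. The choice was made with earlier results of all 16 libraries and all 4 groups known, and no source used here records which of those values led to it. Their values are therefore given in every comparison as a description with standard errors, with no p-value of their own.

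RNA came from adult cardiac myocytes isolated from the hearts of C57BL/6 mice. Every group was injected with AAV9, an adeno-associated virus used to carry genes into the heart, either as AAV9-Vector or as AAV9-PRODH, which was meant to raise proline dehydrogenase, the first enzyme of proline breakdown. Sham surgery or TAC (transverse aortic constriction, a banding of the aorta that makes the left ventricle pump against pressure) was done 3 weeks after the injection, and cells were collected 4 weeks after surgery. The 4 groups of 4 libraries are AAV9-Vector with sham (vector sham), AAV9-Vector with TAC (vector TAC), AAV9-PRODH with sham (PRODH sham) and AAV9-PRODH with TAC (PRODH TAC). The groups carrying the vector are labelled wild type and the others PRODH overexpression. The sources used here give neither the promoter of the virus nor the age of the mice, no group went without virus, and nothing says whether a library is 1 animal or a pool, so p-values measure the spread between libraries, which may be technical.

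Imprinting is a mark set in the germ line that leaves a gene active from only the maternal or only the paternal copy. H19 and Igf2 share enhancers on the same chromosome, with H19 read from the maternal and Igf2 from the paternal copy, and a control region between them decides which is reached. Dlk1, Meg3 and Rian form a second such domain, with Dlk1 paternal and the long RNAs Meg3 and Rian maternal. Many imprinted genes of this kind are high in the fetal heart and fall after birth. As a rule the paternally active ones (Igf2, Dlk1, Peg3, Plagl1) are described as favouring or regulating growth and maternally active ones (H19, Cdkn1c, Grb10) as restraining it. These libraries measure the amount of RNA, not which parental copy it came from.

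Total counts per library ranged from 15987580 to 22680212, and genes of the mitochondrial genome took 34.5% to 40.9% of them. That share was 37.9% to 40.9% in the sham libraries and 34.5% to 36.6% in the TAC libraries, so it separated by surgery. Levels are in normalised CPM, a count set against the size of its library after TMM, a method that aligns libraries by the bulk of their genes. Prodh stood at 10.4 to 11.5 CPM under the vector after sham and 6.19 to 8.38 after TAC, and at 12.6 to 14.8 under PRODH after sham and 12.3 to 14.7 after TAC. The PRODH libraries all lay above the vector ones after either surgery. After TAC the log2 difference was 0.90 ± 0.10 SE (edgeR Benjamini-Hochberg adjusted p = 2.19e-08). The sham difference of 0.33 ± 0.10 did not pass (edgeR adjusted p = 0.0517). These are counts of the mouse Prodh gene model. Whether reads from the gene carried by the virus were counted there was not tested, so they do not measure how far the virus raised PRODH. TAC against sham was -0.58 ± 0.11 under the vector and -0.02 ± 0.10 under PRODH. The sum of 14 cardiomyocyte markers was 41859 to 63475 CPM in every library, against 338 to 2549 for 16 fibroblast markers, so the labelled cell type was the main one and other cells were present.

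Of the 9 genes, 4 carry mature microRNAs within their span on their own strand, 13 in all with 13 different seeds (bases 2 to 8, which pair with targets). They are shown for H19, Igf2, Meg3 and Rian because the host transcripts are what the counts measure, while the small RNAs themselves were not measured here. Seeds are in capitals, sequences run 5′ to 3′, and positions are those of RefSeq on GRCm38.p6. In the GENCODE M21 annotation the H19 and Meg3 microRNAs lie in exons of their hosts and those of Igf2 and Rian in introns.
mmu-miR-675-5p (H19, chr7:142577112-142577133, minus strand): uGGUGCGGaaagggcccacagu
mmu-miR-675-3p (H19, chr7:142577078-142577099, minus strand): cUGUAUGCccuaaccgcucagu
mmu-miR-483-5p (Igf2, chr7:142654968-142654989, minus strand): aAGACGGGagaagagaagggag
mmu-miR-483-3p (Igf2, chr7:142654932-142654952, minus strand): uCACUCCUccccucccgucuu
mmu-miR-770-5p (Meg3, chr12:109563710-109563731, plus strand): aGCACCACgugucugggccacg
mmu-miR-770-3p (Meg3, chr12:109563744-109563765, plus strand): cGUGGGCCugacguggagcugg
mmu-miR-370-3p (Rian, chr12:109618305-109618326, plus strand): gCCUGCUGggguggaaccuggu
The others are miR-1906 in Meg3 and miR-370-5p and the paired arms of miR-341 and miR-1188 in Rian.

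H19 (ENSMUSG00000000031) makes a long noncoding RNA and is the host of miR-675. Its level was 7.90, 8.42, 11.8 and 9.68 CPM in vector sham libraries 1 to 4 and 17.4, 17.8, 21.96 and 21.4 in vector TAC. With PRODH it was 6.36, 6.17, 5.44 and 5.98 CPM after sham and 8.53, 10.04, 7.07 and 7.99 after TAC. Every vector TAC library lay above every other library of the study, and every PRODH sham library lay below all the rest. Vector sham and PRODH TAC overlapped. TAC against sham was 1.05 ± 0.12 (log2 ± SE) under the vector, a 2.07-fold difference, and 0.49 ± 0.13 under PRODH. PRODH against vector was -1.22 ± 0.11 after TAC and -0.66 ± 0.13 after sham. H19 was the only tested gene of the 9 whose level was lower with PRODH than with the vector, without overlap, after sham as well as after TAC.

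Igf2 (ENSMUSG00000048583) encodes insulin-like growth factor 2, a fetal growth factor, and is the paternal partner of H19. Its level was 11.2, 9.64, 13.6 and 10.8 CPM in vector sham and 19.9, 17.3, 26.1 and 25.6 in vector TAC. It was 11.4, 12.2, 11.7 and 12.8 CPM in PRODH sham and 14.6, 16.1, 13.6 and 14.4 in PRODH TAC. Vector TAC again stood above all other groups, but here the sham groups overlapped and PRODH sham lay inside the range of vector sham. The log2 differences were 0.98 ± 0.11 for TAC under the vector, 0.28 ± 0.12 for TAC under PRODH, -0.60 ± 0.11 for PRODH after TAC and 0.09 ± 0.12 for PRODH after sham. The libraries of TAC and sham under PRODH did not overlap, and this difference lay at the edge of the threshold. It did not pass as fitted, but passed under 12 of 22 alternatives. These were library size alone (0.67), no filter (0.30), only the compared groups (0.30), the replicate block (0.29), and the fits without any 1 of the vector sham libraries (0.32 each), PRODH sham library 4 (0.35) or vector TAC library 2, 3 or 4 (0.28 each). In the annotation Igf2 overlaps Gm49394 on its own strand and Igf2os on the other. No source used here says whether counting used strand, so reads of Igf2 and Igf2os cannot be told apart where they overlap.

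The count of H19 per count of Igf2 in the same library does not depend on how libraries are scaled. It was 0.707, 0.874, 0.867 and 0.893 in vector sham and 0.870, 1.03, 0.841 and 0.836 in vector TAC. It was 0.556, 0.505, 0.463 and 0.467 in PRODH sham and 0.584, 0.625, 0.521 and 0.555 in PRODH TAC. All 8 PRODH libraries lay below all 8 vector libraries, while sham and TAC overlapped under either virus. On the log2 scale the ratio differed by -0.74 ± 0.10 (SE of the 4 and 4 libraries) between PRODH and vector after sham and by -0.64 ± 0.09 after TAC. TAC against sham was 0.10 ± 0.11 under the vector and 0.20 ± 0.08 under PRODH. The level of H19 thus differed with surgery and with virus, while its ratio to Igf2 separated the viruses only.

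**Figure D1:**
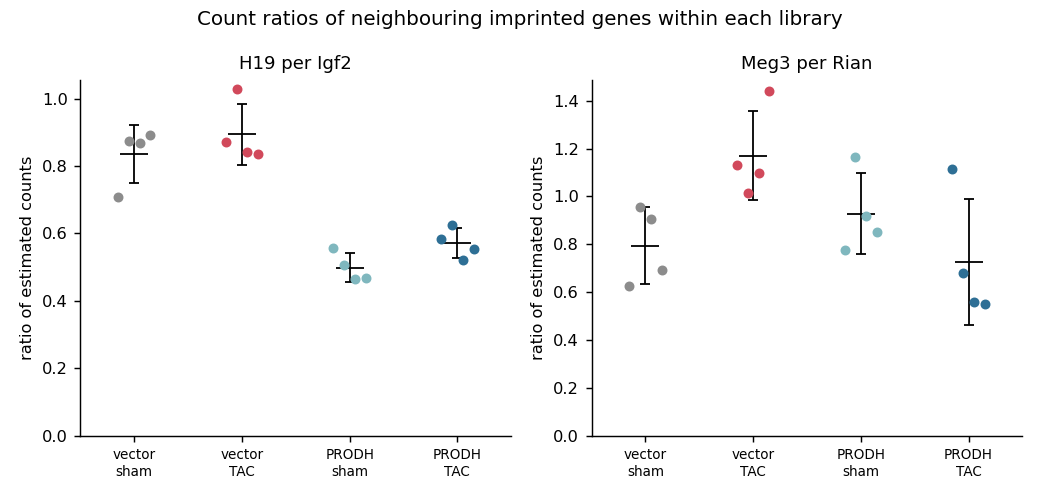
Ratio of estimated counts (y axis, no unit) of H19 to Igf2 and of Meg3 to Rian in each of the 4 libraries (points) of the 4 groups, with mean and SD (black). All PRODH libraries have an H19 to Igf2 ratio of 0.625 or less and all vector libraries one of 0.707 or more, while the Meg3 to Rian ratio overlaps between most groups.

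Meg3 (ENSMUSG00000021268), a maternal long RNA known as a growth suppressor, was at 0.712, 1.12, 1.15 and 1.16 CPM in vector sham and 3.70, 4.11, 3.56 and 4.44 in vector TAC. In PRODH sham it was at 0.817, 1.74, 1.26 and 1.12 CPM and in PRODH TAC at 2.37, 1.94, 1.34 and 1.06. Vector TAC stood apart from all other libraries, and the PRODH groups overlapped each other. TAC against sham was 1.91 ± 0.23 under the vector, the largest fold among the 8 tested genes, and 0.44 ± 0.25 under PRODH, with PRODH against vector at -1.23 ± 0.20 after TAC and 0.23 ± 0.28 after sham. TAC under PRODH passed the threshold by library size alone (0.82) and without PRODH TAC library 4 (0.63). The level rests on few reads, 73.1 to 316 counts summed over the 4 libraries of a group.

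Rian (ENSMUSG00000097451) lies downstream of Meg3 in the same domain and hosts small nucleolar RNAs and microRNAs. Its level was 1.14, 1.17, 1.27 and 1.69 CPM in vector sham and 3.28, 4.05, 3.25 and 3.09 in vector TAC, against 1.05, 1.495, 1.38 and 1.31 in PRODH sham and 2.13, 2.85, 2.40 and 1.93 in PRODH TAC. Each TAC group lay above its own sham group without overlap, and PRODH TAC lay between the sham groups and vector TAC. The log2 differences were 1.36 ± 0.19 for TAC under the vector, 0.83 ± 0.19 for TAC under PRODH, -0.55 ± 0.17 for PRODH after TAC and -0.02 ± 0.22 for PRODH after sham. Meg3 per Rian was 0.625 to 0.957 after sham and 1.01 to 1.44 after TAC under the vector, against 0.778 to 1.17 and 0.551 to 1.11 under PRODH. Only vector sham and vector TAC were separate in that ratio (0.57 ± 0.18 on the log2 scale).

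Dlk1 (ENSMUSG00000040856), the paternal gene of that domain and a membrane protein of the Notch ligand family, was close to absent. It had 0, 1, 0 and 1 counts in vector sham, 2, 1, 1 and 0 in vector TAC, 0 in all 4 PRODH sham libraries and 0, 2, 0 and 3 in PRODH TAC. A count of 0 allows up to 3 counts in a library, so no difference was detectable at this depth, and Dlk1 was not tested.

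The promoters of Meg3 and Peg3 are printed because both hold the palindrome TGACGTCA, the cyclic AMP response element. Both genes differed between vector TAC and PRODH TAC, but so did 7 of the 8 tested members in all. Igf2, Rian and Plagl1 are among these 7, and their entries lack the palindrome. RefSeq promoter entries on GRCm38.p6 (250 bases before to 50 after a start site) were found for 7 of the 9 genes, 12 entries in all. None was found for H19 and Cdkn1c. Searched on both strands, TGACGTCA is in 1.79% of all 32851 entries and in these 2 of the 12. TATAAA is in 13.6% of all entries and among the 12 only in Meg3, where 2 matches on opposite strands overlap, with their first base at position -29 from the start. GGAATG, the core letters of TEAD sites, is in 14.7% of all entries, among them Peg3, Rian and 3 of 4 Igf2 entries. Matches are in capitals and are a description of letters only.
Meg3 (chr12:109540746-109541045, plus strand): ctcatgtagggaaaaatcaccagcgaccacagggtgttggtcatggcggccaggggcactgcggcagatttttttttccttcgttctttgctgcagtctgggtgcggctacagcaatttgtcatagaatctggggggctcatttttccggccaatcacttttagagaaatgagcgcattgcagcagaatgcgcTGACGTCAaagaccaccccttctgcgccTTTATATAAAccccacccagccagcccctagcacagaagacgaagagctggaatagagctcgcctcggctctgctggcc
Peg3 (chr7:6730370-6730669, minus strand): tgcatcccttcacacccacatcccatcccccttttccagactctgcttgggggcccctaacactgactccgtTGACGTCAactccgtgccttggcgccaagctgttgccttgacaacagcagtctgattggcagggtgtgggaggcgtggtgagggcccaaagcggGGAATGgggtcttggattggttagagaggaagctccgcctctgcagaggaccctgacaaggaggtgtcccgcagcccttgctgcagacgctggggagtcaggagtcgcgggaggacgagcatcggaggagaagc

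Cdkn1c (ENSMUSG00000037664) encodes p57, an inhibitor of cyclin-dependent kinases that is read from the maternal copy. It was at 4.48, 5.12, 5.80 and 4.87 CPM in vector sham and 9.49, 10.03, 8.39 and 10.8 in vector TAC, and at 7.06, 7.35, 6.65 and 8.01 in PRODH sham and 8.45, 7.77, 6.42 and 7.20 in PRODH TAC. All PRODH sham libraries lay above all vector sham ones, the opposite order to H19, and the 2 PRODH groups overlapped. The log2 differences were 0.93 ± 0.12 for TAC under the vector, 0.04 ± 0.11 for TAC under PRODH, 0.51 ± 0.12 for PRODH after sham and -0.38 ± 0.11 for PRODH after TAC, the last with overlapping ranges. Scaled by library size alone, the TAC difference under PRODH was 0.42 and passed the threshold. Counts were fractional in 3 of 16 libraries, as estimated counts are where reads are divided between similar sequences, and Gm44732 overlaps the gene on the other strand.

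Grb10 (ENSMUSG00000020176) encodes an adaptor that binds the insulin and IGF1 receptors and dampens their signal. It was the most abundant of the 9 in every group, per base of gene length, and the one with the least difference between viruses. Its level was 47.5, 40.7, 48.1 and 50.2 CPM in vector sham and 69.3, 68.2, 71.6 and 72.0 in vector TAC, and 47.6, 49.2, 46.2 and 42.7 in PRODH sham and 62.8, 67.8, 70.3 and 68.6 in PRODH TAC. Sham and TAC were separate under either virus, and the viruses overlapped after either surgery. TAC against sham was 0.59 ± 0.07 under the vector and 0.54 ± 0.07 under PRODH, with PRODH against vector at -0.06 ± 0.07 after TAC and -0.01 ± 0.07 after sham.

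Peg3 (ENSMUSG00000002265) is a paternally active zinc finger gene. It was at 2.70, 1.57, 2.41 and 3.28 CPM in vector sham, 5.40, 4.68, 4.25 and 4.66 in vector TAC. With PRODH it was at 2.39, 4.17, 3.15 and 2.04 after sham and 3.82, 2.93, 3.53 and 2.99 after TAC. Vector TAC lay above the other 3 groups, which overlapped. The differences were 0.94 ± 0.19 for TAC under the vector, 0.17 ± 0.19 for TAC under PRODH, -0.52 ± 0.17 for PRODH after TAC and 0.25 ± 0.21 for PRODH after sham. Without vector TAC library 1, or PRODH TAC library 2 or 4, the PRODH difference after TAC no longer passed the threshold (-0.45, -0.46 and -0.44).

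Plagl1 (ENSMUSG00000019817) encodes a zinc finger transcription factor that is known to act on other genes of the network. It was at 1.92, 1.52, 2.78 and 1.90 CPM in vector sham, 2.51, 2.50, 2.99 and 2.01 in vector TAC. With PRODH it was at 1.17, 1.62, 1.83 and 1.77 after sham and 1.61, 1.90, 1.38 and 1.30 after TAC. Among these groups only vector TAC and PRODH TAC had separate ranges in the comparisons made. The differences were 0.31 ± 0.20 for TAC under the vector, -0.05 ± 0.22 for TAC under PRODH, -0.69 ± 0.20 for PRODH after TAC and -0.34 ± 0.22 for PRODH after sham. Scaled by library size alone, TAC under the vector stood at 0.67 and passed the threshold.

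**Figure D2:**
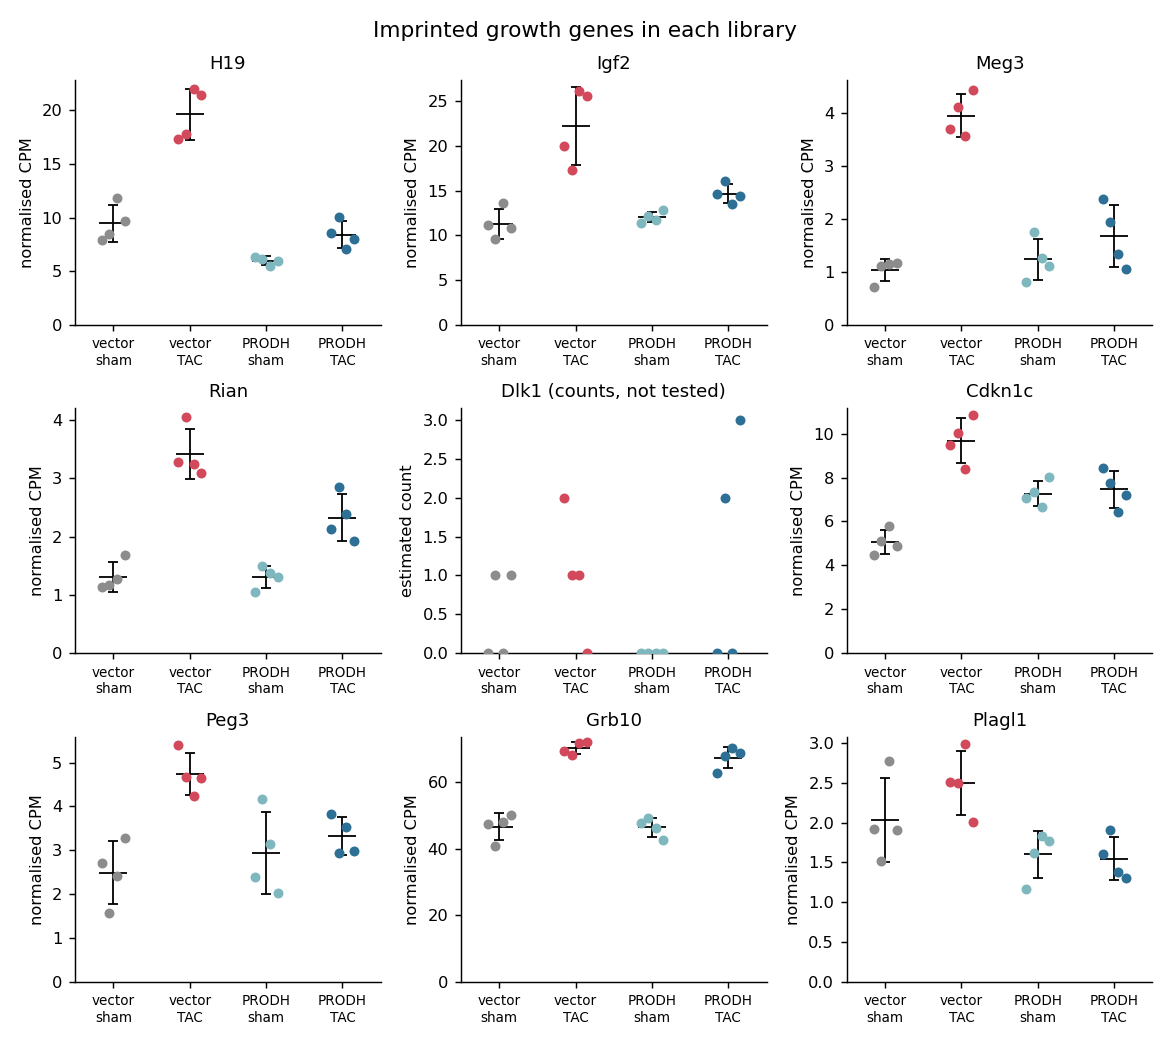
Normalised CPM (y axis, from 0) of 8 imprinted growth genes in each of the 4 libraries (points) of the 4 groups, with mean and SD (black), and estimated counts of Dlk1, which was not tested. H19 spans 17.4 to 21.96 CPM in vector TAC and 5.44 to 6.36 in PRODH sham, Cdkn1c is higher in PRODH sham than in vector sham, and Grb10 separates by surgery in both arms.

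Counted over the 8 tested genes with edgeR's quasi-likelihood test (Benjamini-Hochberg adjusted p under 0.05 over all 14066 genes), 7 were higher and 0 lower after TAC under the vector, where 30.3% of all genes were called higher and 26.2% lower. Only Plagl1 was not called. Under PRODH, 3 were higher after TAC (H19, Rian and Grb10) and 0 lower, with 17.2% of all genes called higher and 17.8% lower. That count became 7 when libraries were scaled by library size alone, a scaling that moved the median of all genes in this comparison from 0.02 to 0.40. Since the members were chosen with these results known, nothing is read from the counts against those shares.

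With PRODH against vector after TAC, 7 of the 8 were lower and 0 higher, all but Grb10, where 24.6% of all genes were called lower and 18.5% higher. The vector TAC libraries enter this comparison and the TAC comparison under the vector alike. After sham, H19 was lower and Cdkn1c higher, with 2.20% of all genes called lower and 2.81% higher. These were also the 2 members whose sham groups did not overlap, which held for 5.25% of all genes in the higher and 5.17% in the lower direction. Groups did not overlap for 7 genes after TAC under the vector (26.1% of all genes were higher without overlap), 4 after TAC under PRODH (17.3%) and 6 for PRODH after TAC (22.6% lower without overlap). The TAC effect was smaller under PRODH, as a difference of effects, for H19 (-0.56 ± 0.18), Igf2 (-0.69 ± 0.16), Meg3 (-1.46 ± 0.35), Cdkn1c (-0.89 ± 0.16) and Peg3 (-0.77 ± 0.27), 5 of 8 called, where 15.8% of all genes were called in that direction and 10.9% in the other. Those 5 became 3 (Meg3, Cdkn1c and Igf2) without vector sham library 1, vector sham library 2 or PRODH sham library 2. Peg3 lost the call in 9 of 21 alternatives and H19 in 5.

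**Figure D3:**
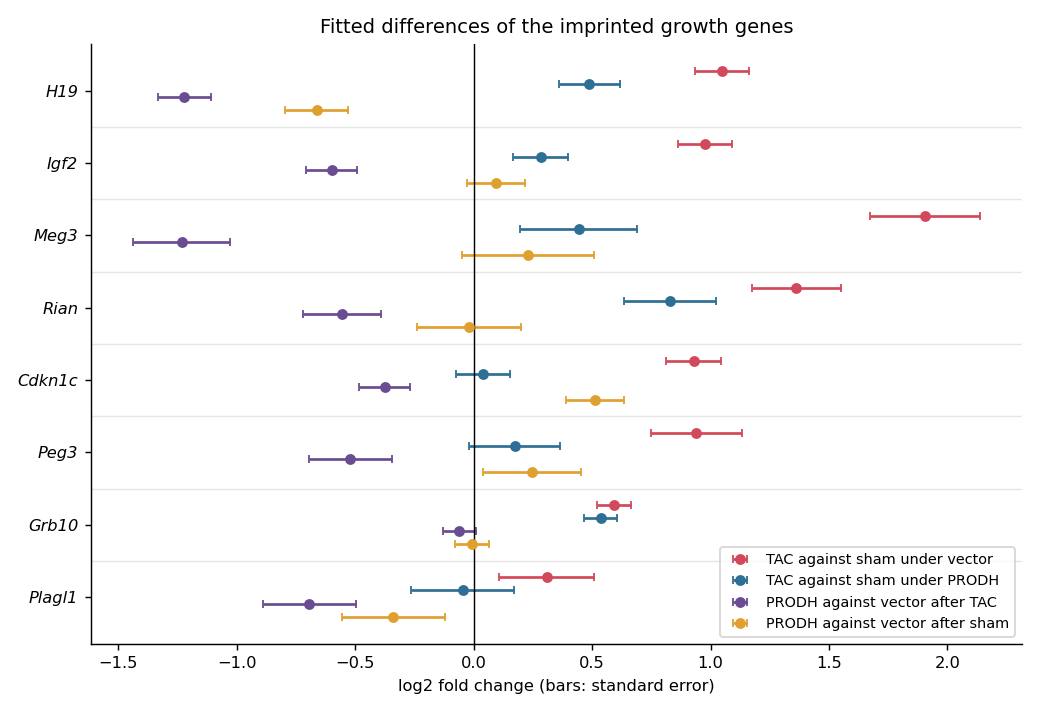
Fitted log2 fold changes (x axis, points) with standard errors (bars) of the 8 tested genes in 4 comparisons. TAC under the vector lies above 0 for all 8, PRODH after TAC lies below 0 for all 8 with Grb10 nearest to it (-0.06), and after sham H19 (-0.66) and Cdkn1c (0.51) point in opposite directions.

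Set side by side per kilobase of deposited gene length, the members fell into a higher and a lower set. Grb10 led with 9.21 CPM per kilobase after sham and 13.9 after TAC under the vector, and 9.17 and 13.3 under PRODH. By group means, H19 came next in the vector groups (3.61 after sham, 7.49 after TAC), followed by Cdkn1c (2.68 and 5.13) and Igf2 (2.40 and 4.71). With PRODH the order changed to Cdkn1c (3.85 after sham, 3.95 after TAC) ahead of H19 (2.29 and 3.21) and Igf2 (2.55 and 3.10). Many of these neighbours in the order were not separate in their library ranges. H19 overlapped Cdkn1c in vector sham (3.02 to 4.52 against 2.37 to 3.07) and in PRODH TAC (2.70 to 3.83 against 3.40 to 4.47), and Igf2 in both PRODH groups. Cdkn1c overlapped Igf2 in both vector groups and in PRODH TAC. H19 lay above Cdkn1c without overlap only in vector TAC (6.62 to 8.38 against 4.44 to 5.74), and below it without overlap only in PRODH sham (2.08 to 2.43 against 3.52 to 4.24). Peg3, Plagl1, Rian and Meg3 lay between 0.0711 and 0.528 in all groups, and Dlk1 at 0.0108 or less.

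The genes whose profiles were most like those of the members were found by the root mean square difference of log2(CPM + 1) over the 16 libraries, each gene centred on its own mean, among 8020 or 8021 other genes with a mean of at least 5 CPM. For H19, whose own profile spans 1.83 on that scale, they were Hbb-bs (0.16), Ednrb (0.17), Cd14 (0.18), Lhfp (0.19) and Il1r1 (0.20). Hbb-bs is an adult beta globin, Ednrb an endothelin receptor and Cd14 a myeloid surface protein. For Igf2 they were Rgs3 (0.09), Tbc1d2b (0.10) and Cemip2 (0.11), and for Meg3 Cxcl16 (0.16), Dpt (0.17) and Pros1 (0.17). Dpt is a matrix protein of fibroblasts. Rian was nearest to Dusp6, Smad1 and Gucy1a1 (each 0.13), Cdkn1c to Tkt (0.12), Smap1 and Trib2 (each 0.14), and Peg3 to Cep170, Zdhhc20 (each 0.16) and Golim4 (0.17). Grb10 was nearest to Slc30a4, Akap13 and Mylk (each 0.09), and Plagl1 to Erp29 (0.15), Pdia4 and Chic2 (each 0.16). None of the nearest genes of one member was the nearest of another. The added 1 CPM shrinks the differences of members with low levels more than those of the genes compared. Such members can therefore match genes that differ by a smaller fold. As group means under the vector, Meg3 was at 1.03 CPM after sham and 3.95 after TAC, and Pros1 at 8.43 and 17.2.

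Markers of other cells moved with several of these levels. Summed over 16 fibroblast markers, CPM ran from 338 to 518 after sham and 2293 to 2549 after TAC under the vector, and from 473 to 508 and 674 to 860 under PRODH. All 16 were higher after TAC under the vector and all 16 were lower with PRODH after TAC, and none was called after sham. Of all genes, 30.3% were called higher after TAC under the vector and 24.6% lower with PRODH after TAC. Endothelial markers (16) summed to 649 to 780, 1227 to 1419, 708 to 762 and 912 to 1047 CPM in the same order of groups, and myeloid markers (14) to 152 to 234, 424 to 453, 231 to 272 and 240 to 296. Mural markers (12) summed to 1528 to 1700, 2153 to 2487, 1460 to 1653 and 1515 to 1698 CPM. Most of that sum is Des, the muscle filament desmin, which cardiomyocytes also make, and without it the group means were 441, 560, 442 and 543. After TAC under the vector 8 mural markers were higher and 2 lower, Acta2 (-0.85 ± 0.08) and Abcc9 (-0.59 ± 0.07). Mesothelial markers (8) summed to 10.7 to 13.3, 18.2 to 20.5, 10.2 to 14.1 and 9.64 to 12.3. No marker on any of these lists was at 0 in a whole group. In bulk RNA, fewer cells of a type and less RNA per cell cannot be told apart, and the part of these markers in the members' differences was not tested.

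Red cell and platelet markers had the H19 order of group means, highest in vector TAC and lowest in PRODH sham, as did the mural sum with Des but not without it. This is the order after TMM. For H19, vector sham was above PRODH TAC there (9.46 against 8.41 CPM) but below it by library size alone (8.24 against 9.73). The marker sums were not rescaled. The red cell and platelet sum over 8 genes was 112 to 189 CPM after sham and 229 to 307 after TAC under the vector, and 68.9 to 95.3 and 110 to 127 under PRODH. Of the 6 tested, 5 were lower with PRODH after sham, with a median log2 difference of -0.94, and all 6 after TAC, with a median of -1.13. The fibroblast median after sham was 0.12 and the endothelial one 0.03, with 0 genes called among fibroblast markers and, among endothelial ones, Cldn5 lower (-1.02 ± 0.13) and Egfl7 higher (0.29 ± 0.07). Of the 12 mural markers 3 were lower with PRODH after sham and 0 higher, all of them smooth muscle genes, Myh11 (-0.67 ± 0.12), Tagln (-0.73 ± 0.12) and Cnn1 (-1.44 ± 0.33). Of the 14 myeloid markers 5 were higher and 0 lower. Of all genes, 2.81% were called higher and 2.20% lower with PRODH after sham. The part of any of these markers in the H19 difference was not tested. The 14 cardiomyocyte markers had a median of -0.003 after sham, with none called, and of -0.41 after TAC under the vector, with 12 lower and 1 higher.

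**Figure D4:**
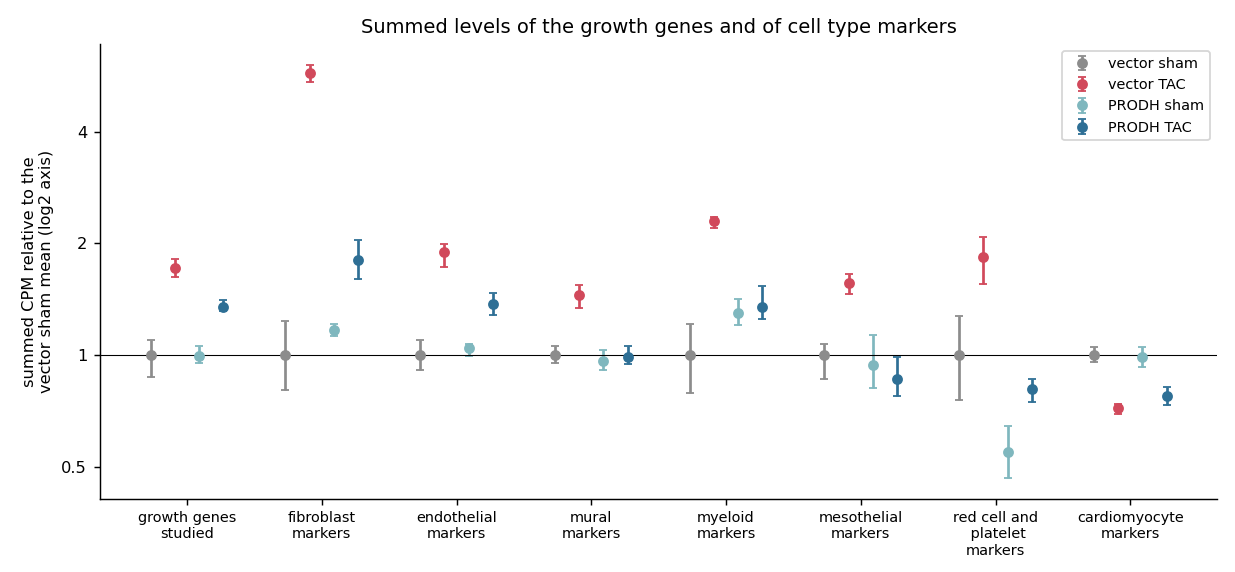
Summed CPM of the 9 growth genes and of each marker list relative to the vector sham mean (y axis, log2 scale), as group mean (points) with lowest and highest library (bars). Fibroblast markers are highest in vector TAC (2293 to 2549 CPM), red cell and platelet markers lowest in PRODH sham (68.9 to 95.3 CPM), and the growth gene sum is carried mostly by Grb10.

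Other genes placed in the same imprinted network, such as Mest, Dcn and Ndn, were read from a list of 14, of which 11 had enough counts. This list and those below were chosen with earlier results of these data known. The p-values of genes named from them are therefore a description. After TAC under the vector 6 were higher and 2 lower, with a median log2 fold change of 0.83 against 0.02 for all genes tested. Of all genes 30.3% were called higher there and 26.2% lower. Dcn, the matrix proteoglycan decorin and also a fibroblast marker, was at 2.03 ± 0.11 (edgeR adjusted p = 6.35e-14), Sgce, a sarcoglycan, at 1.49 ± 0.13 (2.59e-11) and Gatm, an enzyme of creatine synthesis, at 1.75 ± 0.25 (7.91e-07). With PRODH after TAC 4 were lower and 3 higher, with a median of -0.39 against -0.04 for all genes. Of all genes 24.6% were called lower and 18.5% higher. Dcn was at -1.38 ± 0.10 (edgeR adjusted p = 1.09e-10), Sgce at -0.81 ± 0.11 (8.84e-07) and Ndn, a growth suppressor, at -1.22 ± 0.20 (1.13e-05). The 3 higher were Ppp1r9a (1.06 ± 0.23), Asb4 (0.84 ± 0.23) and Mest (0.45 ± 0.14). For Mest, TAC against sham was 0.83 ± 0.16 under the vector and 1.83 ± 0.16 under PRODH. That difference of effects was 1.00 ± 0.23, and 3 genes of the list were called in its direction and 5 in the other.

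Genes listed as next to the members in their imprinted domains were mostly lower or not called after TAC under the vector, as fitted. The list does not hold every gene of these domains. Of 22 neighbours 11 were tested, and 6 were lower and 1 higher under the vector (median -0.35), where 26.2% of all genes were called lower and 30.3% higher. The neighbour counts turned to 1 lower and 3 higher (median 0.01) when scaled by library size alone. Ltv1, a ribosome assembly factor beside Plagl1, was at -0.54 ± 0.10, Nap1l4, a nucleosome assembly protein, at -0.38 ± 0.07 and the potassium channel gene Kcnq1 at -0.35 ± 0.08 (edgeR adjusted p = 3.23e-05, 6.78e-05 and 0.000826). These became -0.18, -0.03 and 0.01 by library size alone. With PRODH after TAC 5 neighbours were higher and 2 lower, with a median of 0.20, where 18.5% of all genes were called higher and 24.6% lower. Kcnq1ot1, the antisense RNA that silences the Cdkn1c domain on the paternal copy, was at 0.74 ± 0.19 (edgeR adjusted p = 0.00286), Phactr2 at 0.36 ± 0.10 (0.00292) and Zim1, a zinc finger gene beside Peg3, at 0.86 ± 0.27 (0.0119). Kcnq1ot1 overlaps Kcnq1, and without strand their reads cannot be told apart where they overlap.

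On a further list of imprinted genes, which were not sorted by their distance from the members, calls went both ways, as over all genes tested. Whether the genes of these lists are imprinted in cardiac myocytes was not measured here. Of 36 listed 23 were tested, and after TAC under the vector 6 were higher and 9 lower (median -0.06), or 10 and 2 (median 0.30) by library size alone. As fitted, 30.3% of all genes were called higher there and 26.2% lower. Snrpn, a splicing protein gene, was at -0.92 ± 0.07 (edgeR adjusted p = 3.16e-12), Smoc1, a matricellular protein gene, at 1.69 ± 0.17 (1.17e-09) and Osbpl5, an oxysterol binding protein gene, at 1.13 ± 0.12 (3.56e-09). With PRODH after TAC 4 were higher and 5 lower, with a median of 0.01, where 18.5% of all genes were called higher and 24.6% lower. Smoc1 was at -1.37 ± 0.16 (edgeR adjusted p = 3.02e-08), the ubiquitin ligase gene Ube3a at 0.67 ± 0.11 (4.51e-05) and Osbpl5 at -0.61 ± 0.11 (5.02e-05).

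In IGF signalling, where Igf2 is a ligand and Grb10 a brake, 18 of 23 listed genes were tested. After TAC under the vector 11 were higher and 1 lower (median 0.53), where 30.3% of all genes were called higher and 26.2% lower. The ligand Igf1 went from 3.71 to 15.97 CPM as group means (2.10 ± 0.11, edgeR adjusted p = 9.63e-16), and the binding proteins Igfbp4 and Igfbp3, which hold the ligands, were at 1.86 ± 0.10 and 2.04 ± 0.12 (7.88e-15 and 2.40e-14). With PRODH after TAC 11 were lower and 3 higher (median -0.54), where 24.6% of all genes were called lower and 18.5% higher. Igfbp6 was at -1.67 ± 0.12, Igfbp3 at -1.66 ± 0.11 and Igfbp4 at -1.31 ± 0.10 (edgeR adjusted p = 8.55e-13, 9.93e-13 and 9.66e-12). Igfbp3 was at 5.59 CPM after sham and 23.4 after TAC under the vector, and 7.31 and 7.40 under PRODH. With 2.20% of all genes called lower with PRODH after sham, 1 gene of the list was called, also lower. It was the receptor substrate Irs2 (-0.42 ± 0.11, edgeR adjusted p = 0.0141), named after its value was seen, and the list had 0 called genes without vector sham library 4 or PRODH sham library 4 and by library size alone, and 3 without vector sham library 2. As given above, fibroblast markers moved in the same libraries.

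**Figure D5:**
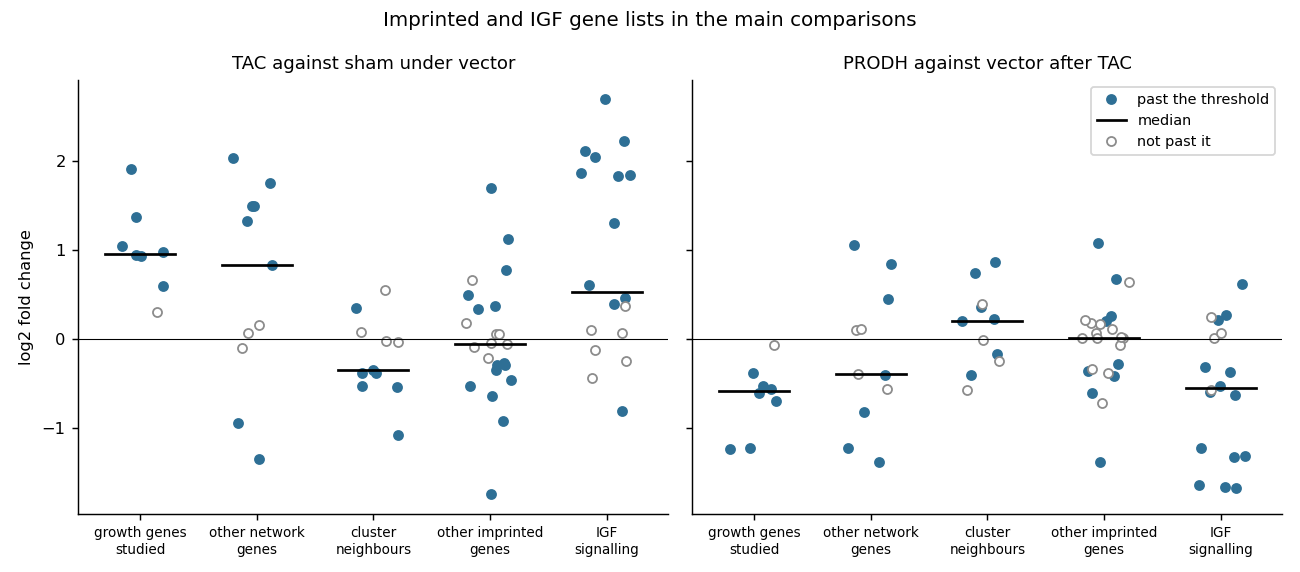
Log2 fold changes (y axis) of single genes (points, filled where the adjusted p is under 0.05) in 5 lists, with list medians (black lines), for TAC under the vector (left) and PRODH against vector after TAC (right). The list medians, left and right, are 0.96 and -0.58 for the growth genes studied and 0.83 and -0.39 for other network genes. They are -0.35 and 0.20 for cluster neighbours, -0.06 and 0.01 for other imprinted genes, and 0.53 and -0.54 for IGF signalling. The lists were chosen with results of these data known, and nothing is read from setting their medians against each other.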

How the data were processed

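Messenger RNA of 16 cardiac myocyte libraries was sequenced after SMARTER amplification, per the labels' protocols. The authors counted reads per gene and deposited the values as estimated counts (expected counts), some of them fractional, as the deposited table shows. The sources used here name no aligner, counting tool, genome build or strandedness. Counts were rounded, genes were kept by edgeR's filterByExpr (minimum count 10, minimum total 15), which left 14066 of 57010, libraries were scaled by TMM, and a 4-group quasi-likelihood model without a replicate term was fitted to all 16 libraries with edgeR 4.0.16 in R 4.3.3. A gene was called at a Benjamini-Hochberg adjusted p under 0.05 over all tested genes. Standard errors come from that fit. The procedure was tested on simulated data. DESeq2 1.42.0, other scalings, no filter, fits of the compared groups alone, a replicate block and leaving out each library were alternatives.

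The members, the gene lists and the marker lists were chosen with earlier results of these data known. Named were all 9 members, up to 3 called genes with the smallest p per list in each of the 2 comparisons the design states (TAC against sham under the vector, PRODH against vector after TAC), and the 5 genes (H19) or 3 genes (other members of at least 1 CPM) with the nearest profile. Ratios of counts between members and the mural sum without Des were added after seeing the data. The higher genes of the other network list with PRODH after TAC were also named after seeing the data. No library duplicated another. MicroRNA and promoter sequences are from RefSeq on GRCm38.p6 and gene overlaps from GENCODE M21. Depth was 15987580 to 22680212 counts per library.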

Additional observations from a re-analysis of the deposited data

Results flagged for a closer look

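In vector sham, library 1 stood apart from the other 3 for Meg3, at 0.712 CPM against 1.12 to 1.16, and the gap was 0.895 of the group's range. The same library stood apart in the count of H19 per Igf2, at 0.707 against 0.867 to 0.893, a gap of 0.863 of the range. Of 40 groups examined 2 had such a library, and chance gives about 1 in 20.

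The TAC effect differed between the viruses for 5 genes, by edgeR's test of the difference of effects, with log2 values of -0.56 for H19, -0.69 for Igf2, -1.46 for Meg3, -0.89 for Cdkn1c and -0.77 for Peg3, each a smaller TAC difference under PRODH. All 5 had been chosen with results of these libraries known. Igf2, Meg3 and Cdkn1c passed under all 21 alternatives run. Peg3 no longer passed in 9 of them, which were library size alone (-0.75) and the fits without vector sham library 1, 2 or 3, PRODH sham library 2 or 3, vector TAC library 1, or PRODH TAC library 2 or 4 (-0.75 to -0.51). H19 no longer passed in 5, without vector sham library 1 or 2 or PRODH sham library 1, 2 or 4 (-0.51 to -0.44).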

How the results depend on the processing

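Scaling by library size alone was the choice that moved most. It raised the genes called for TAC under PRODH from 4925 to 8186 and the members called there from 3 to 7, and moved the median of all genes to 0.37 for TAC under the vector and 0.40 under PRODH. Genes called higher for TAC under PRODH went from 2425 to 7875 and those called lower from 2500 to 311. The share of called genes that were higher went from 53.6% to 86.2% and from 49.2% to 96.2%. Kcnq1 turned from -0.35 to 0.00594 for TAC under the vector. Leaving out 1 library at a time gave 3 to 5 members called in the difference of effects. Every other total of genes or of members called, both directions together, stayed within 1.5 times its value under the alternatives run. Counts in the 4 other gene lists moved further in 35 of 436 cases. For TAC under PRODH by library size alone, cluster neighbours called went from 0 to 7 and other imprinted genes from 6 to 14. Levels of the members were less stable, and 29 of 48 checks of them under other scalings counted as moved. For H19 the mean of PRODH TAC lay below that of vector sham after TMM (8.41 against 9.46 CPM). It lay above by library size alone (9.73 against 8.24), and also when mitochondrial genes were left out of the scaling. Replicate numbers are shared by the groups. Same-numbered libraries of different groups had deviations that correlated at -0.16 to 0.23 (median 0.02, 8 of 24 over 0.1). Differently numbered ones correlated at -0.29 to 0.33 (median 0.0007, 11 of 72 over 0.1). Of 16 libraries 5 correlated best with one of their own number. With a replicate block the members called were 7, 4, 7, 2 and 5 for TAC under the vector, TAC under PRODH, PRODH after TAC, PRODH after sham and the difference of effects, against 7, 3, 7, 2 and 5 without it, and the call gained was Igf2. Depth limits Dlk1, Meg3, Rian and Plagl1 most.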
